A study of Homo sapiens with 6 samples.

Results

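The genes described here encode the nuclear lamina, the proteins of the nuclear envelope and the nucleoporins of the nuclear pore complex. They were chosen by name, as a list of 47 symbols matched to the 60671 gene identifiers of the count files. Of the 47 genes, 19 encode lamins and envelope proteins and 28 encode nucleoporins, and 46 had enough reads to be tested. RNA was measured in a clone of K562, a human chronic myeloid leukemia line, that carries a doxycycline-inducible fusion of a Flag tag, a nuclear localization signal, the GpC methyltransferase M.CviPI and Lamin B1 (Flag-NLS-M.CviPI-Lamin-B1). In the DMSO group, 3 separate cultures received 0.1% DMSO for 72 hours. In the EZH2i group, 3 separate cultures received 1 µM GSK343, an inhibitor of the Polycomb methyltransferase EZH2, for 72 hours. All 6 cultures received doxycycline at 1 µg/mL for the final 24 hours, so both groups expressed the fusion, and the line is 1 clone.

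The lamina is a meshwork of A-type and B-type lamins under the inner nuclear membrane. Lamin B receptor, emerin, LAP2 and MAN1 tether it to the membrane and to chromatin, and SUN proteins in the inner membrane pair with nesprins in the outer membrane to link it to the cytoskeleton. Nuclear pores fuse both membranes, and each is built from an outer scaffold called the Y complex, an inner ring, membrane anchors, channel nucleoporins with FG repeats, a basket on the nuclear side and filaments on the cytoplasmic side. The fusion in this clone marks DNA that touches the lamina, and the comparison of the groups asks how the RNA of the lamina and pore genes stood after EZH2 inhibition.

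Each library held from 6327544 to 8987768 reads on genes. The members together took from 0.494% to 0.519% of the normalized reads in DMSO and from 0.465% to 0.4785% in EZH2i. These ranges did not overlap. EZH2i replicate 3 stood apart in the reads assigned to no gene feature, at 12.7% of its listed reads against 7.43% to 8.51% in the other 5 libraries. Without it, 2 members were called lower (NUP37 and NUP188) in place of 1, and 24 of 28 pore genes lay below 0 in place of 25. Values are given as CPM, counts per 1000000 reads on genes after scaling the libraries by trimmed means of M-values (TMM). The libraries read the 3' ends of polyadenylated RNA. Genes were compared with edgeR's quasi-likelihood test, and a change was called at a Benjamini-Hochberg adjusted p under 0.05 over all 12364 genes tested. All 8 K562 identity genes were detected, with a summed level of 730 to 787 CPM in DMSO and 786 to 846 CPM in EZH2i, and the fetal globin gene HBG2, whose reads can be shared with HBG1, was the 1 of them called, at a log2 fold change of 0.58 (adjusted p = 0.0251). The 7 markers of other cell types summed to 98.8 to 101 CPM in DMSO and 89.7 to 93.1 CPM in EZH2i, most of it from EPCAM at 61.2 to 83.5 CPM. The B-cell marker MS4A1 was at 0 in every library, and CD3E and CD14 were at or near 0. The fibroblast collagen gene COL1A1 was called higher, from 1.25 to 2.16 CPM in DMSO to 4.06 to 7.88 CPM in EZH2i (adjusted p = 0.00424). It had 8, 11 and 19 reads in DMSO and passed the filter on low counts through its EZH2i libraries. The part of these genes in the results below was not tested, and fewer cells of a type and less RNA per cell cannot be told apart in bulk RNA.

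Most lamina and pore genes stayed close to their DMSO levels after EZH2 inhibition. Of the 46 tested members, 1 fell, the Y complex gene NUP37, and 0 rose. That is 2.17% of the members, where 4.26% of all tested genes were called, 3.34% higher and 0.922% lower. At an unadjusted p under 0.05 there were 11 members, or 23.9%, against 19.1% of all genes. The log2 fold changes of the members ran from -0.60 to 0.96 with a median of -0.13, and that of all tested genes had a median of -0.0002. Below 0 were 34 of 46 members. The 95% intervals of 38 of the 46 lay wholly within a 1.5-fold change in either direction, against 56.9% of all tested genes, and 45 lay within a 2-fold change.

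**Figure D1:**
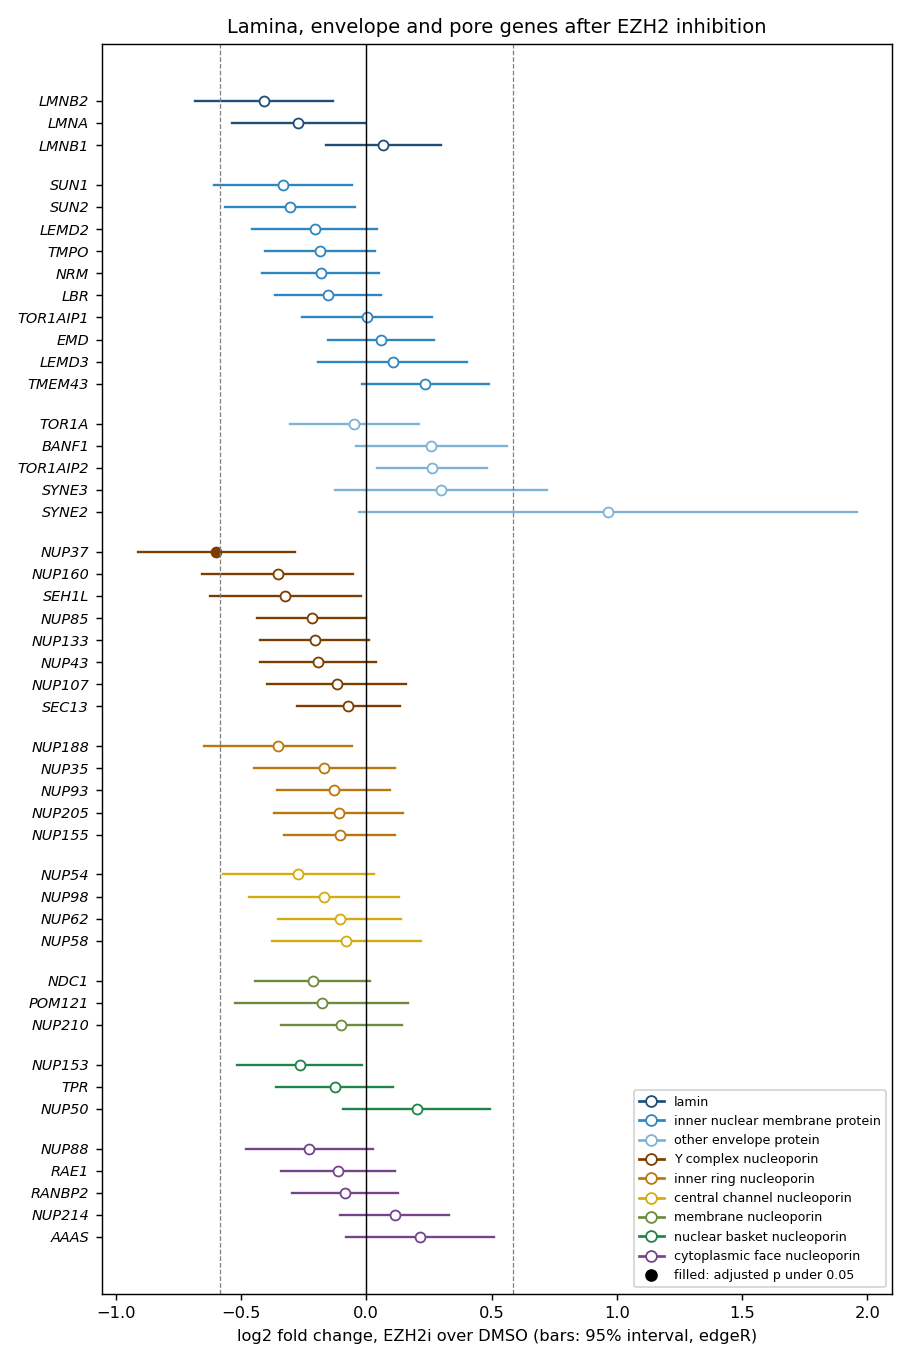
Log2 fold change of EZH2i over DMSO (horizontal axis) for the 46 tested members, grouped and coloured by class. Points are edgeR estimates, bars are 95% intervals, dashed lines mark a 1.5-fold change and the filled point is the 1 gene called. NUP37 lies lowest at -0.60, most pore genes lie left of 0, and SYNE2 has the widest interval.

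The share of members whose libraries separated by group gave a second view of the same data. In 18 of 46 members (39.1%), all 3 EZH2i libraries lay on one side of all 3 DMSO libraries, where 24.5% of all tested genes did so. In 15 members (32.6%) every EZH2i library was below every DMSO library, against 11.1% of all genes. In 3 members every EZH2i library was above, against 13.3% of all genes. Among them was SYNE2, which passed the filter on low counts through its EZH2i libraries. Among the 3545 tested genes whose level lay between the quartiles of the members' levels, 15.3% had all EZH2i libraries below, 56.1% had a log2 fold change below 0 and 1.52% were called lower. No test was run on these shares, since the genes of the list are not replicates. EZH2i replicate 1 had the lowest EZH2i value for 22 of the 46 members, and DMSO replicate 1 had the highest DMSO value for 24. Leaving out 1 library moved the log2 fold change of 33 of the 46 members by over 1.5 times, 8 of them among the 18 members with groups apart.

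The 3 lamins differed in the sign of their log2 fold change. None was called by edgeR or DESeq2, where edgeR called 4.26% of all tested genes. LMNB2, which encodes lamin B2 and lies at chr19:2427638-2456959 on the minus strand (GRCh38, ENSG00000176619), measured 112, 101 and 96.5 CPM in the DMSO libraries and 60.7, 83.2 and 88.7 CPM in the EZH2i libraries. Every EZH2i library was below every DMSO library, and EZH2i replicate 1 was far below the other two. The log2 fold change was -0.41 with an SE of 0.13 and an adjusted p of 0.0875, the lowest adjusted p among the lamina and envelope genes. Without EZH2i replicate 1 it was -0.26 (adjusted p = 0.175), and with no filter on low counts LMNB2 was called, at -0.43 and an adjusted p of 0.0167.

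LMNA encodes lamins A and C, and it lies at chr1:156082573-156140081 on the plus strand (ENSG00000160789). It measured 189, 180 and 151 CPM in DMSO and 117, 157 and 157 CPM in EZH2i. The groups overlapped, because DMSO replicate 3 lay below 2 of the EZH2i libraries, and the log2 fold change was -0.27 with an SE of 0.13 (adjusted p = 0.252), or -0.14 without EZH2i replicate 1. LMNB1, the gene of lamin B1 at chr5:126776623-126837020 on the plus strand (ENSG00000113368), measured 291, 224 and 269 CPM in DMSO and 261, 285 and 276 CPM in EZH2i. The 3 EZH2i libraries lay inside the range of the DMSO libraries. Its log2 fold change was 0.07 with a 95% interval from -0.16 to 0.30 (adjusted p = 0.788), and without DMSO replicate 2 it was -0.03. The fusion construct carries only the coding sequence of lamin B1, and how far reads of the fusion entered the LMNB1 count was not tested.

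The balance of the lamins within each library was also computed, a choice made after the values were seen. The ratio of LMNB2 to LMNB1 reads was 0.384, 0.448 and 0.359 in the DMSO libraries and 0.232, 0.292 and 0.322 in the EZH2i libraries, and the groups did not overlap. The ratio of LMNA to LMNB1 was 0.651, 0.803 and 0.561 in DMSO and 0.447, 0.551 and 0.571 in EZH2i, and the highest EZH2i value lay above the lowest DMSO value. Reads were not divided by length, so these ratios compare libraries and do not rank the proteins or the transcripts. Of the 5 genes whose products process prenylated lamins, 0 were called, against 4.26% of all tested genes, and 1 (20%) had an unadjusted p under 0.05, close to the 19.1% of all tested genes. ICMT, the methyltransferase that finishes the farnesylated end of prelamin A and the B-type lamins, had the lowest log2 fold change at -0.27 (adjusted p = 0.207), and RCE1, a protease of the same route, had the highest at 0.19 (adjusted p = 0.825). DESeq2 also called 0 of these 5.

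**Figure D2:**
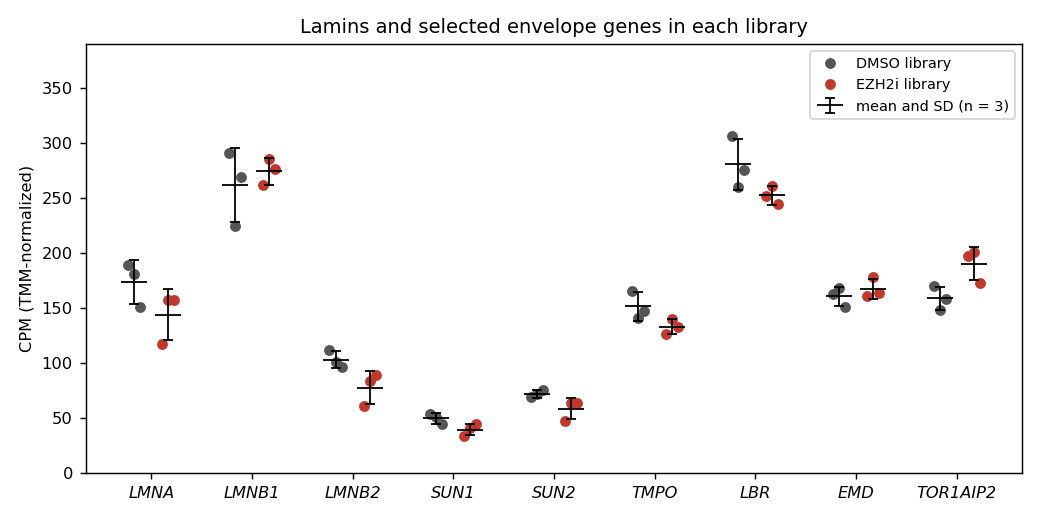
Normalized level in CPM (vertical axis, from 0) of the 3 lamins and 6 envelope genes in each library, with group means and SD (n = 3). The LMNB2, SUN1, SUN2 and TMPO points of EZH2i lie below those of DMSO, the TOR1AIP2 points lie above, and those of LMNA, LMNB1, LBR and EMD overlap.

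Among the 18 tested lamina and envelope genes, 0 were called in either direction, by edgeR and by DESeq2, where edgeR called 4.26% of all tested genes, and 5 (27.8%) had an unadjusted p under 0.05, against 19.1% of all tested genes. Their log2 fold changes were split, with 9 above and 9 below 0 and a median of -0.02. In 6 of the 18 (33.3%) every EZH2i library was below every DMSO library, against 11.1% of all tested genes. In 3 of the 18 every one was above, against 13.3% of all tested genes. The summed level of these genes was 1683 ± 96.6 CPM (SD, n = 3) in DMSO and 1614 ± 68.6 CPM in EZH2i, and the groups overlapped. Of the 10 inner nuclear membrane proteins, 6 were below 0, and their summed level was 910 ± 39.5 CPM in DMSO and 844 ± 33.0 CPM in EZH2i. Here the groups did not overlap, with the lowest DMSO library at 886 and the highest EZH2i library at 880 CPM.

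The SUN proteins, which span the inner membrane and hold nesprins across the perinuclear space, had the lowest log2 fold changes of that class. SUN1 measured 53.8, 50.9 and 44.3 CPM in DMSO and 33.6, 40.6 and 43.97 CPM in EZH2i. The groups were apart only by the small gap between DMSO replicate 3 and EZH2i replicate 3, and the log2 fold change was -0.33 with an SE of 0.13 (adjusted p = 0.163). SUN2 measured 68.5, 71.6 and 75.5 CPM in DMSO and 47.4, 63.9 and 63.3 CPM in EZH2i, with EZH2i replicate 1 the lowest. Its log2 fold change was -0.30 with an SE of 0.12 (adjusted p = 0.180), or -0.17 without EZH2i replicate 1. SUN2 shares 1135 exon bases with GTPBP1 on the other strand, and the strand setting of the counting is not given in the sources used here. Of 771 genes lying wholly under exons of the opposite strand 127 (16.5%) had reads, and of 1156 lying wholly under exons of the same strand 39 (3.37%) did.

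Of the LEM-domain genes, which bind the chromatin protein BAF, TMPO and LEMD2 had groups apart and EMD and LEMD3 did not. TMPO encodes the LAP2 proteins and measured 166, 141 and 147 CPM in DMSO and 126, 140 and 133 CPM in EZH2i (log2 fold change -0.19, adjusted p = 0.344, and -0.12 without DMSO replicate 1). LEMD2 measured 38.5, 44.3 and 44.5 CPM in DMSO and 37.1, 36.7 and 36.8 CPM in EZH2i (log2 fold change -0.20, adjusted p = 0.359). In both genes the nearest libraries of the 2 groups were separated by a narrow gap. EMD, which encodes emerin, had a log2 fold change of 0.06, and LEMD3, which encodes MAN1, one of 0.10. LBR, the lamin B receptor and a sterol reductase, measured 280 ± 23.4 CPM in DMSO and 252 ± 8.44 CPM in EZH2i with overlapping groups (log2 fold change -0.15, adjusted p = 0.431). NRM, which encodes nurim, measured 51.0, 52.1 and 52.0 CPM in DMSO and 47.8, 45.7 and 43.3 CPM in EZH2i, apart and lower at a log2 fold change of -0.18 (adjusted p = 0.386). TMEM43 and TOR1AIP1, an activator of torsin A, had log2 fold changes of 0.24 and 0.003.

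The remaining envelope genes lay mostly above 0, and again none was called, where edgeR called 4.26% of all tested genes. BANF1 encodes BAF, which bridges DNA and LEM-domain proteins. It measured 31.8, 30.8 and 31.1 CPM in DMSO and 46.1, 32.8 and 33.2 CPM in EZH2i, so that the groups were apart but EZH2i replicate 1 carried most of the difference. Its log2 fold change was 0.26 with an SE of 0.14 (adjusted p = 0.332), or 0.08 without that library. TOR1AIP2, which encodes the torsin activator LULL1, measured 169, 148 and 158 CPM in DMSO and 197, 200 and 173 CPM in EZH2i. Every EZH2i library was above every DMSO library, at a log2 fold change of 0.26 with an SE of 0.10 (adjusted p = 0.166). TOR1A itself, the torsin A ATPase, was at -0.05.

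Nesprin genes were at the bottom of the measured range. SYNE1 had 1, 2 and 1 reads in the DMSO libraries and 3, 1 and 0 reads in the EZH2i libraries, and was not tested. SYNE2, at chr14:63761899-64226433 on the plus strand, had 2, 14 and 8 reads in DMSO and 13, 17 and 14 reads in EZH2i, which are 0.313, 1.66 and 0.908 CPM and 1.76, 2.14 and 2.01 CPM. The groups were apart, with DMSO replicate 1 at 2 reads. Every EZH2i library had at least 10 reads, and of the DMSO libraries only replicate 2 did. SYNE2 thus passed the filter on low counts through the group where it was higher. It was not tested when at least 10 counts were required in every library. The log2 fold change of 0.96 had an SE of 0.47 and a 95% fold interval from 0.981 to 3.88 (adjusted p = 0.272), so a change of up to that size could not be told from none at this depth. Leaving out DMSO replicate 1 gave 0.62, and leaving out DMSO replicate 2 gave 1.58. SYNE3 measured 6.73, 8.07 and 7.49 CPM in DMSO and 9.89, 9.58 and 8.02 CPM in EZH2i, from 43 to 76 reads per library. The groups overlapped, at a log2 fold change of 0.30 (adjusted p = 0.445).

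Most pore genes had a log2 fold change slightly below 0, and 1 of them fell. Of the 28 nucleoporins, all tested, 1 was called lower (3.57%, against 0.922% of all tested genes) and 0 higher, and 6 had an unadjusted p under 0.05 (21.4%, close to the 19.1% of all tested genes). A log2 fold change below 0 was found in 25 of the 28 (89.3%), with a median of -0.15, against 50.03% of all tested genes and 56.1% of those at the levels of the members. Every EZH2i library was below every DMSO library in 9 of the 28 (32.1%), against 11.1% of all tested genes. The share was 33.3% among the lamina and envelope genes. In 0 of the 28 pore genes was every EZH2i library above. Their summed level was 3392, 3318 and 3381 CPM in the DMSO libraries and 3237, 3045 and 3041 CPM in the EZH2i libraries, a difference in means of -7.61% with groups that did not overlap. Divided library by library, the sum of the lamina and envelope genes over the sum of the pore genes was 0.529, 0.489 and 0.483 in DMSO and 0.478, 0.553 and 0.530 in EZH2i. The ratio thus overlapped between groups, at 0.500 ± 0.025 and 0.520 ± 0.0383 (SD, n = 3). On the log2 scale the difference of EZH2i from DMSO was 0.055 with a replicate SD of 0.0914, and it was 0.185 from geometric means, which weight each gene alike, and from 0.00956 without EZH2i replicate 2 to 0.115 without EZH2i replicate 1.

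The Y complex, the ring-forming scaffold of the outer pore, held the 1 called gene. That is 12.5% of its 8 genes, where 0.922% of all tested genes were called lower. An unadjusted p under 0.05 was found in 4 of the 8 (50%), against 19.1% of all tested genes. All 8 Y complex genes had a log2 fold change below 0, with a median of -0.21. Among the genes at the levels of the members, 56.1% lay below 0. In 5 of the 8 (62.5%) every EZH2i library was below every DMSO library, against 11.1% of all tested genes and 15.3% of those at the levels of the members. Their summed level was 680 ± 18.8 CPM in DMSO and 589 ± 7.34 CPM in EZH2i, a difference of -13.4%. The lowest DMSO library was at 664 and the highest EZH2i library at 595 CPM. The 8 genes share the same 6 libraries, so their common direction is a description and carries no p.

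NUP37 lies at chr12:102073103-102120120 on the minus strand (ENSG00000075188) and encodes a small beta-propeller subunit of the Y complex. It measured 53.0, 55.5 and 38.7 CPM in DMSO and 27.6, 33.3 and 36.1 CPM in EZH2i. DMSO replicates 1 and 2 stood well above the rest, and DMSO replicate 3 was just above the highest EZH2i library. NUP37 fell by 0.60 on the log2 scale, with an SE of 0.15, a fold of 0.660, a 95% fold interval from 0.532 to 0.821 and an adjusted p of 0.0309. The call was lost when any 1 of 4 libraries was left out, with log2 fold changes that stayed between -0.49 and -0.62. The adjusted p was 0.131 without DMSO replicate 1, 0.164 without DMSO replicate 2, 0.0566 without EZH2i replicate 1 and 0.0529 without EZH2i replicate 2.

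**Figure D3:**
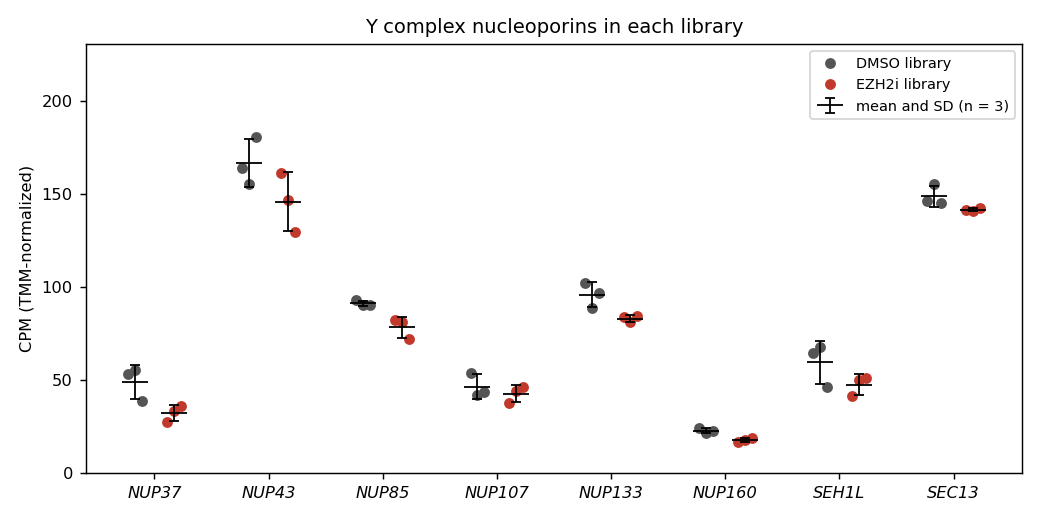
Normalized level in CPM (vertical axis, from 0) of the 8 Y complex genes in each library, with group means and SD (n = 3). Means of EZH2i lie below those of DMSO for all 8 genes, and the libraries of the groups overlap for NUP43, NUP107 and SEH1L.

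Other Y complex genes differed by less. NUP160 measured 23.9, 21.3 and 22.6 CPM in DMSO and 16.4, 17.8 and 18.8 CPM in EZH2i, with every EZH2i library lower (log2 fold change -0.35, SE 0.14, adjusted p = 0.174). NUP85 measured 92.9, 90.2 and 90.4 CPM in DMSO and 82.1, 81.1 and 71.9 CPM in EZH2i (log2 fold change -0.22, SE 0.10, adjusted p = 0.260). NUP133, a subunit that joins neighbouring Y complexes, measured 102, 88.8 and 96.6 CPM in DMSO and 83.7, 81.1 and 84.5 CPM in EZH2i (log2 fold change -0.21, SE 0.10, adjusted p = 0.286). In all 3 genes the highest EZH2i library stood below the lowest DMSO library. SEC13, which also serves the COPII coat of the secretory pathway, measured 146, 156 and 145 CPM in DMSO and 141, 141 and 143 CPM in EZH2i, apart by a narrow gap (log2 fold change -0.07, adjusted p = 0.744, and -0.04 without DMSO replicate 2). The groups overlapped for SEH1L, shared with the GATOR2 complex of nutrient sensing, at -0.32 on the log2 scale (adjusted p = 0.224), for NUP43 at -0.19 and for NUP107 at -0.12. NUP43 shares 222 exon bases with PCMT1 on the other strand, which had 10072 reads in all against 7218 for NUP43.

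Promoter sequence is shown for NUP37, the 1 called member, and for LMNB2, the lamin with the lowest log2 fold change. Both are from RefSeq (GRCh38.p14) and run from 250 bases before the start of transcription to 50 bases after it, 5' to 3' on the minus strand. They lie at chr12:102120065-102120364 for NUP37 and chr19:2456910-2457209 for LMNB2. Capitals mark matches to CCAAT, to CCGGAAG (the core of ETS-family sites) and to GGGCGG (a GC box), on either strand. No matches overlap each other in these 2 promoters.
NUP37: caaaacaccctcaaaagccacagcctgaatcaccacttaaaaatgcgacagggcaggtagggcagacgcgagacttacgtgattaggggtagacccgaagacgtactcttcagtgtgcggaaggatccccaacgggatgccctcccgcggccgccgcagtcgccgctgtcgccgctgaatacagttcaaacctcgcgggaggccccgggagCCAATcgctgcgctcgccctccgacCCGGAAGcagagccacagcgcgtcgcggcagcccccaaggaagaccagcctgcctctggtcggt
LMNB2: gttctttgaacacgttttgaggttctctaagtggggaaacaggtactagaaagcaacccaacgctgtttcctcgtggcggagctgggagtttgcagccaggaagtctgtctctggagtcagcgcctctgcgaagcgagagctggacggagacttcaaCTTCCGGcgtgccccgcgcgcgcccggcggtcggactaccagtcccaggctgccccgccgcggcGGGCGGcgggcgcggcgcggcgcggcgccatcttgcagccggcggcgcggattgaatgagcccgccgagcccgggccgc

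The NUP37 window held 1 CCAAT and 1 CCGGAAG, and the LMNB2 window held 1 CCGGAAG, read here on the opposite strand, and 1 GGGCGG. Across the table, 66 promoters of 44 members were matched, and a gene can have several that overlap. CCGGAAG was in 27.3% of the members' promoters, in 16.1% of the 31 lamina and envelope promoters, in 37.1% of the 35 pore promoters and in 6 of the 9 Y complex promoters, against 10.3% of all 35116 promoters of coding and noncoding genes. GGGCGG was in 54.5% of the members' promoters and 45% of all, and CCAAT in 33.3% and 34.6%. TATAAA, the TATA box, was in 4.55% and 11.5%, and CACGTG, an E-box, in 4.55% and 7.26%. A match is a run of letters and not a measured binding site, and no test was made of these shares.

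Inner ring genes, whose products connect the scaffold to the pore membrane, were all 5 below 0, with a median log2 fold change of -0.13, where 56.1% of the genes at the levels of the members lay below 0. By edgeR or DESeq2 0 were called, against 4.26% of all tested genes in edgeR, and 1 (20%) had an unadjusted p under 0.05, close to the 19.1% of all tested genes. That gene was NUP188, at 65.8, 61.0 and 71.8 CPM in DMSO and 40.8, 51.5 and 63.5 CPM in EZH2i. The groups overlapped at their edge, and the log2 fold change was -0.35 with an SE of 0.14 (adjusted p = 0.168). NUP188 was called without EZH2i replicate 3, at -0.52 (adjusted p = 0.0489), and was at -0.21 without EZH2i replicate 1. The 4 others, NUP35, NUP93, NUP155 and NUP205, lay between -0.17 and -0.11, and NUP93, the hub of the inner ring, measured 344 ± 28.0 CPM in DMSO and 315 ± 31.4 CPM in EZH2i.

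Central channel genes encode the FG nucleoporins that form the barrier of the pore, and all 4 lay below 0, against 56.1% of the genes at the levels of the members. By edgeR or DESeq2 0 were called, and 0 had an unadjusted p under 0.05, against 4.26% and 19.1% of all tested genes in edgeR. NUP54 measured 33.6, 27.4 and 25.2 CPM in DMSO and 22.1, 24.8 and 24.2 CPM in EZH2i, with groups apart by a narrow gap (log2 fold change -0.27, adjusted p = 0.312, and -0.15 without DMSO replicate 1). NUP58 was at -0.08, NUP62 at -0.11 and NUP98 at -0.17. NUP62 shares 565 exon bases with ATF5 on the opposite strand. Of the 3 membrane nucleoporins, NDC1, an anchor needed for pore insertion, measured 80.4, 78.5 and 86.5 CPM in DMSO and 64.2, 70.1 and 77.5 CPM in EZH2i, with groups apart (log2 fold change -0.21, adjusted p = 0.295). POM121, at 85 to 150 reads per library, was at -0.18, and its near-copy POM121C, with 220 to 304 reads per library, could exchange reads with it. NUP210 was at -0.10.

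The nuclear basket genes did not share a direction. NUP153, which anchors the basket, measured 71.0, 67.0 and 70.1 CPM in DMSO and 49.8, 66.0 and 57.2 CPM in EZH2i. EZH2i replicate 1 was the lowest and EZH2i replicate 2 lay just below the DMSO range, at a log2 fold change of -0.27 with an SE of 0.12 (adjusted p = 0.227), or -0.17 without EZH2i replicate 1. TPR, the main strand of the basket, measured 880, 920 and 965 CPM in DMSO and 982, 773 and 778 CPM in EZH2i. One EZH2i library lay above all of DMSO and the other two below, and the log2 fold change was -0.13 (adjusted p = 0.584). NUP50 had the opposite sign at 0.20 (adjusted p = 0.465).

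On the cytoplasmic face, where exported RNA is released, the summed level was 708 ± 26.0 CPM in DMSO and 719 ± 33.6 CPM in EZH2i, and 0 of 5 genes were called or had an unadjusted p under 0.05. Over all tested genes, edgeR called 4.26%, and 19.1% had an unadjusted p under 0.05. DESeq2 called 0 of these 5 genes as well. NUP88 measured 42.5, 42.6 and 40.7 CPM in DMSO and 37.4, 32.3 and 38.0 CPM in EZH2i, apart and lower (log2 fold change -0.23, adjusted p = 0.314). It shares 3786 exon bases with RABEP1 on the other strand. NUP214 measured 393, 371 and 345 CPM in DMSO and 438, 369 and 392.3 CPM in EZH2i (log2 fold change 0.11, adjusted p = 0.599). K562 is known to carry a fusion of the start of NUP214 to XKR3, whose 3' end would be read at XKR3, and XKR3 had 38 to 60 reads per library, at 5.66 ± 1.87 CPM in DMSO and 6.39 ± 1.92 CPM in EZH2i. RANBP2, a SUMO ligase of the cytoplasmic filaments, was at -0.09, and its 7 RGPD paralogs held 30 reads in all against 6684 for RANBP2. RAE1 was at -0.11 and AAAS, the aladin gene, at 0.21.

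**Figure D4:**
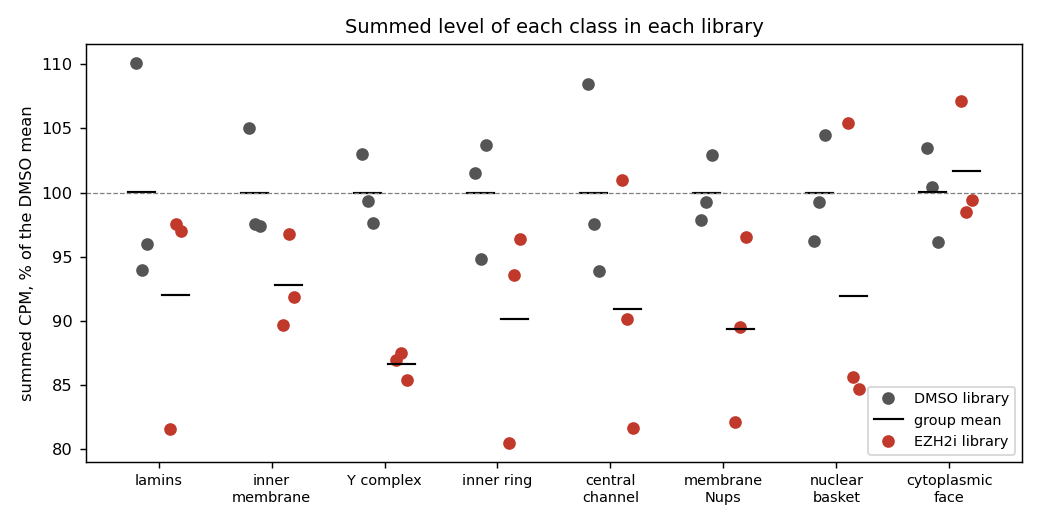
Summed level of the lamins, the inner membrane proteins and each class of nucleoporins in each library, with group means as black lines. Values are percentages of the class's DMSO mean (vertical axis, not starting at 0). The remaining envelope genes are not shown. EZH2i points lie below all DMSO points for the inner membrane proteins, the Y complex and the membrane nucleoporins, and overlap them elsewhere. The Y complex has the tightest EZH2i points, from 85.4% to 87.5%.

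The other genes of nuclear transport were read from a companion list of 31 soluble factors, all of them tested. Of these, 3 fell (9.68%, against 0.922% of all tested genes) and 0 rose. A log2 fold change below 0 was found in 18 (58.1%), with a median of -0.07. That share was 50.03% over all tested genes and 56.1% among those at the levels of the members. XPO5, the exporter of microRNA precursors, measured 136, 148 and 150 CPM in DMSO and 77.3, 100.0 and 100.3 CPM in EZH2i. Every EZH2i library was lower, and XPO5 fell by 0.65 on the log2 scale with an SE of 0.12 (adjusted p = 0.00386). IPO5, an importin that carries ribosomal proteins, measured 160, 162 and 149 CPM in DMSO and 118, 124 and 120 CPM in EZH2i, and fell by 0.38 with an SE of 0.10 (adjusted p = 0.0365). CSE1L, which returns importin alpha to the cytoplasm, measured 165, 155 and 152 CPM in DMSO and 125, 123 and 121 CPM in EZH2i, and fell by 0.36 with an SE of 0.10 (adjusted p = 0.0476). For both IPO5 and CSE1L the groups were far apart relative to their spread. XPO5 alone of the list was called when any 1 of DMSO replicates 1, 2 and 3 or EZH2i replicates 2 and 3 was left out, and 4 genes were called without EZH2i replicate 1. Where they lost the call, the log2 fold changes of IPO5 and CSE1L lay from -0.42 to -0.36 and from -0.38 to -0.32. With the replicate number as a block, 1 gene of the list was called, XPO5. KPNB1, the importin beta that pairs with importin alpha, measured 706, 789 and 750 CPM in DMSO and 643, 586 and 571 CPM in EZH2i, with every EZH2i library lower (log2 fold change -0.32). Its adjusted p was 0.0821 in edgeR and 0.0181 in DESeq2, which called 4 genes of the list, and KPNB1 was also called with no filter on low counts (0.0379) and without EZH2i replicate 1 (0.0282).

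A further list of 20 pore and envelope genes outside the 47 had 16 tested, of which 12 (75%) were below 0. That share was 50.03% over all tested genes and 56.1% among those at the levels of the members. By edgeR or DESeq2 0 of the 16 were called, and 5 (31.3%) had an unadjusted p under 0.05. Over all tested genes the edgeR shares were 4.26% and 19.1%. GLE1, the activator of the RNA helicase that releases mRNA at the cytoplasmic face, was the lowest. It measured 174, 200 and 190 CPM in DMSO and 68.5, 148 and 138 CPM in EZH2i, with EZH2i replicate 1 far below the other two. Its log2 fold change was -0.67 with an SE of 0.19 (adjusted p = 0.0543), and GLE1 was called without EZH2i replicate 1 (-0.39), 2 or 3 in turn, with no filter on low counts and with the replicate number as a block. ANKLE1, a LEM-domain nuclease, was the highest at 0.80 (adjusted p = 0.345). It had 3, 10 and 9 reads in the DMSO libraries and 12, 13 and 11 reads in the EZH2i libraries. It passed the filter on low counts through its EZH2i libraries, so its place as the highest rests on that filter.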

How the data were processed

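Raw counts per Ensembl gene were deposited by the authors for each of 6 libraries of QuantSeq 3' mRNA sequencing. The submitters' processing notes name STAR 2.6.0c, HTSeq 0.11.2, DESeq2 and the build GRCh38. The paper names an Ensembl annotation of that build, and the strand setting is not given in the sources used here. A deposited table of the authors' own comparison (fold changes and p-values) was not used. Rows that name no gene, from 32.1% to 33.0% of the listed reads in 5 libraries and 36.4% in EZH2i replicate 3, were left out.

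Symbols and positions came from GENCODE version 44, which matched 60401 of 60671 identifiers. Genes were tested with edgeR 4.0.16 (R 4.3.3): TMM scaling, filterByExpr with a minimum count of 10, glmQLFit and glmQLFTest, two-sided, all 6 libraries, Benjamini-Hochberg adjustment over 12364 genes. The SE is the log2 fold change divided by the square root of F. Alternatives were DESeq2 1.42.0, other scaling and filters, a replicate block and each library left out. Within groups, replicates differed beyond sampling noise, with chi-square values of 4.25 to 11.5 for each degree of freedom. Libraries came from separate cultures of 1 clone, and intervals cover the spread between them.

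The members and companion lists were chosen with earlier results of these data known. All 47 members are accounted for. Per-library values are given for the lamins, members that were called, had groups apart or had the 3 highest or lowest log2 fold changes, and members not tested. Companion genes that were called are named, and the highest and lowest of companion lists with none called, most with per-library values. NUP188, TPR, NUP214 and KPNB1 were added after their values were seen.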

Additional observations from a re-analysis of the deposited data

How the results depend on the processing

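With no filter on low counts, 2 members were called (LMNB2 and NUP37), of which 1 was a lamina gene, with 5 nuclear transport genes and 1 other pore or envelope gene. With each library left out in turn, called members ranged from 0 to 2, those of the pore from 0 to 2 (NUP188 joined NUP37 without EZH2i replicate 3), transport genes from 1 to 4, and other pore and envelope genes from 0 to 2 (GLE1 without any 1 EZH2i library, with TOR3A without EZH2i replicate 2). With the replicate block, 1 transport gene (XPO5) and 1 other pore or envelope gene (GLE1) were called, and the block changed no call among the members. The replicate numbers are not stated to pair the cultures. Libraries of the same number deviated from their group means with correlations of -0.067, -0.020 and -0.028. Those of unlike number had correlations from -0.104 to 0.125, and values from 3 libraries per group cannot decide whether cultures were paired. The log2 ratio of lamina to pore sums, EZH2i minus DMSO, was 0.06 from summed CPM and 0.18 from geometric means, which weight every gene alike, and 0.0096 to 0.11 with a library left out. Over the 46 tested members and 11 alternatives, 490 log2 fold changes kept direction and side of the threshold, 4 lost the call (all NUP37), 2 gained it (LMNB2 with no filter, NUP188 without EZH2i replicate 3) and 9 of 5 members near 0 changed sign. Those were TOR1AIP1 (-0.00432 with RLE size factors, -0.0138 with DESeq2, -0.0199 with no filter, -0.0378 to 0.0375 with a library left out) and, with a library left out, LMNB1 (-0.0295 to 0.149), TOR1A (-0.116 to 0.000615), NUP205 (-0.208 to 0.00952) and NUP58 (-0.177 to 0.0148). Among the companion genes given values, RCE1 ran from -0.27 to 0.533, and CSE1L lost its call with at least 10 counts required in every library (adjusted p = 0.0532). Pore genes below 0 numbered 24 or 25 of 28 and Y complex genes 8 of 8 under every alternative. Over all genes, calls numbered 527, and 928 with no filter, 599 with the block, 435 with DESeq2 and from 209 to 536 with a library left out; the causes were not tested.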
